A study of Mus musculus with 8 samples.

Results

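The 10 genes described here encode transcription factors that set the bone, cartilage, fat and skeletal muscle lineages of the mesenchyme. They are Runx2 and Sp7 for bone, Sox9, Sox5 and Sox6 for cartilage, Pparg, Cebpa and Cebpb for fat, and Myod1 and Myf5 for muscle. They were taken by gene symbol from a table of estimated read counts for 55401 genes, and each symbol matched 1 row. RNA was sequenced from 8 lines of mouse embryonic fibroblasts (MEFs), 4 SLMAP3-/- and 4 WT, with 1 library per line. SLMAP3 is a tail-anchored protein of the centrosome and nuclear envelope and a member of the STRIPAK phosphatase and kinase complex, and the study asked what its loss does to embryonic cells and organs, the skeleton among them. The comparison addressed here is which of the lineage programmes each line expressed, and whether SLMAP3-/- lines differed from WT lines in them.

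Every line came from an E14.5 embryo of strain B6C3F1, from the body that remained once the head and organs were removed, so the starting cells were a mixture that could hold precursors of all 4 lineages. The SLMAP3-/- embryos carried a global deletion made by CMV-driven Cre acting on a floxed exon 3 of Slmap, and the WT embryos were wildtype at that gene. All 8 lines, WT included, were transfected with SV40 large T antigen after passage 2 and split until senescence was no longer seen. All grew in high-glucose DMEM with 10% fetal bovine serum, and no medium that induces bone, cartilage, fat or muscle is named for these samples. A line is a culture grown out from its embryo, so the values below are those of the cells that survived immortalization, and fewer cells of a type cannot be told apart from less RNA per cell in such bulk RNA.

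In the textbook order of events, Sox9 opens the cartilage lineage and acts together with Sox5 and Sox6 on the genes of cartilage matrix, while Runx2 and then its downstream factor Sp7 (osterix) commit cells to bone. Cebpb comes early in adipogenesis and precedes Pparg and Cebpa, which keep each other active in fat cells. Myf5 and Myod1 are the first of the myogenic factors and precede Myog in muscle. Fibroblasts of the mesenchyme share the upstream factors of several of these lineages, and the downstream ones are used to tell differentiated cells from precursors.

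The start sites of these genes differ in base composition, and 4 windows are shown because they belong to both regulators with the highest levels per length (Cebpb and Runx2), to one that varied widely between lines (Cebpa), and to one with almost no reads (Myf5). Each runs 5′ to 3′ from 250 bases before to 50 bases after a RefSeq start in GRCm38.p6, and capitals mark CG dinucleotides. Cebpb is chr2:167688665-167688964 on the plus strand, Cebpa is chr7:35119043-35119342 on the plus strand, Runx2 is chr17:44814578-44814877 on the minus strand, and Myf5 is chr10:107486085-107486384 on the minus strand.
Cebpb: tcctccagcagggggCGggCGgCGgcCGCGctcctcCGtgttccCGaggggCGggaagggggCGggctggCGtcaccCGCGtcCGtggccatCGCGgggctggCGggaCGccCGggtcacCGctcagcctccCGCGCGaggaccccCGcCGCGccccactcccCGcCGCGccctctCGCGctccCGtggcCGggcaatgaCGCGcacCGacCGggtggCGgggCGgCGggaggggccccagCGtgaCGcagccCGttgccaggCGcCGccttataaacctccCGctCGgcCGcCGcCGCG
Cebpa: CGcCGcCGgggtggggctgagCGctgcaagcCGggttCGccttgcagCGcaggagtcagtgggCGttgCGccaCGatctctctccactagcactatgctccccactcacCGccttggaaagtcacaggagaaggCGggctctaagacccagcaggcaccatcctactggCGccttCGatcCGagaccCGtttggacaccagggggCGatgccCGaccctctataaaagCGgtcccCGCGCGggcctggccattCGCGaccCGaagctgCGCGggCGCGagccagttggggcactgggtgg
Runx2: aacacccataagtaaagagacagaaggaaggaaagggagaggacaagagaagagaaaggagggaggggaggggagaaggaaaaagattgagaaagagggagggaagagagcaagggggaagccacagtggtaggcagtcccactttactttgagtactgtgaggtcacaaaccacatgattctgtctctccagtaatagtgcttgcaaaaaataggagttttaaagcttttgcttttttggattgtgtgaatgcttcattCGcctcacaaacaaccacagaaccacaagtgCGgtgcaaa
Myf5: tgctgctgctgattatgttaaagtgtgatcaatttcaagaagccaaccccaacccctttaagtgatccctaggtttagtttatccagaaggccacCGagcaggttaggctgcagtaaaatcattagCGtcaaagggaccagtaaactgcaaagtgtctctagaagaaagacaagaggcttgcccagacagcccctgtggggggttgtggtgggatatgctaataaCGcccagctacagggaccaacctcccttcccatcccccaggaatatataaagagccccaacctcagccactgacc
The Cebpb window held 50 CG dinucleotides, more than 99.1% of all 32851 RefSeq windows of this length, whose median was 7. The Cebpa window held 29, above 87.1% of windows. The Runx2 window held 2, above 14.1% of windows, and the Myf5 window held 3, above 23.3%. The Runx2 window is 1 annotated start of a gene with 9 coding transcripts. Its CG content was therefore not set against the level of Runx2. The letters TATAAA, searched on either strand, were in the Cebpb, Cebpa and Myf5 windows and in 13.6% of all windows. Of the 10 genes, 7 matched the RefSeq table with 14 windows. Sp7, Sox9 and Myod1 did not match. The reads were counted per gene, so the values below do not tell the starts of one gene apart.

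Total estimated counts ran from 50952494 to 59854680 in SLMAP3-/- lines and from 49879059 to 63322486 in WT lines. Slmap, the targeted gene, was at 38.3 ± 4.94 CPM (normalized read counts at a common library size; SD, n = 4) in SLMAP3-/- lines and at 137 ± 8.60 CPM in WT lines, and it fell by 1.84 on the log2 scale (SE 0.11, adjusted p = 0.00119, edgeR's quasi-likelihood test, adjusted by Benjamini-Hochberg). It was the only gene called among 15461 tested, which is 0.00647%. DESeq2 called 11 genes (0.0325% of those it tested). The fibroblast label held for the collagens, with Col1a1 at 4508 to 7010 CPM, and the summed level of 10 fibroblast markers was 15716 to 21393 CPM in SLMAP3-/- lines and 18614 to 23453 CPM in WT lines. Dcn and Lum were low, at 0.323 to 14.8 CPM and 0.113 to 18.5 CPM, and WT line 1 was under 1 CPM for both. Markers of other cell types summed to at most 2.08 CPM for epithelium, 5.48 CPM for leukocytes and 2.80 CPM for neural cells. The endothelial list summed to 16.8 to 41.9 CPM in SLMAP3-/- lines and 9.56 to 27.7 CPM in WT lines, nearly all of it Kdr and Tek, while the defining genes Pecam1 and Cdh5 were at most 0.227 and 0.200 CPM. WT line 1 lay at one end of the first principal component of log2 CPM (27.0% of the variance), and WT lines 3 and 4 lay at the other end.

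Cebpb and Runx2, the early factors of fat and bone, were the highest of the regulators, and the myogenic factors had almost no reads. On the scale of mean CPM per kilobase of coding transcript (median transcript length of each gene), Cebpb stood at 70.2, Runx2 at 49.7, Pparg at 10.1, Sox9 at 4.82, Sox6 at 2.81, Cebpa at 1.61, Sox5 at 1.19 and Sp7 at 0.267. Myf5 was at 0.00116 on that scale and Myod1 at 0. Cebpb exceeded Runx2 in all 8 lines although their ranges over lines overlapped. On this length the lowest Runx2 level per kilobase was above the highest Pparg level, and the lowest Sp7 level was above the highest Myf5 level. Other neighbours in that order overlapped in their ranges, and Pparg exceeded Sox9 in only 4 of 8 lines. With the longest coding transcript as the length, Runx2 stood at a mean of 13.8 per kilobase and Pparg at 8.41, but their ranges overlapped and Runx2 exceeded Pparg in 6 of 8 lines, while Sox6 and Cebpa changed places.

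**Figure D1:**
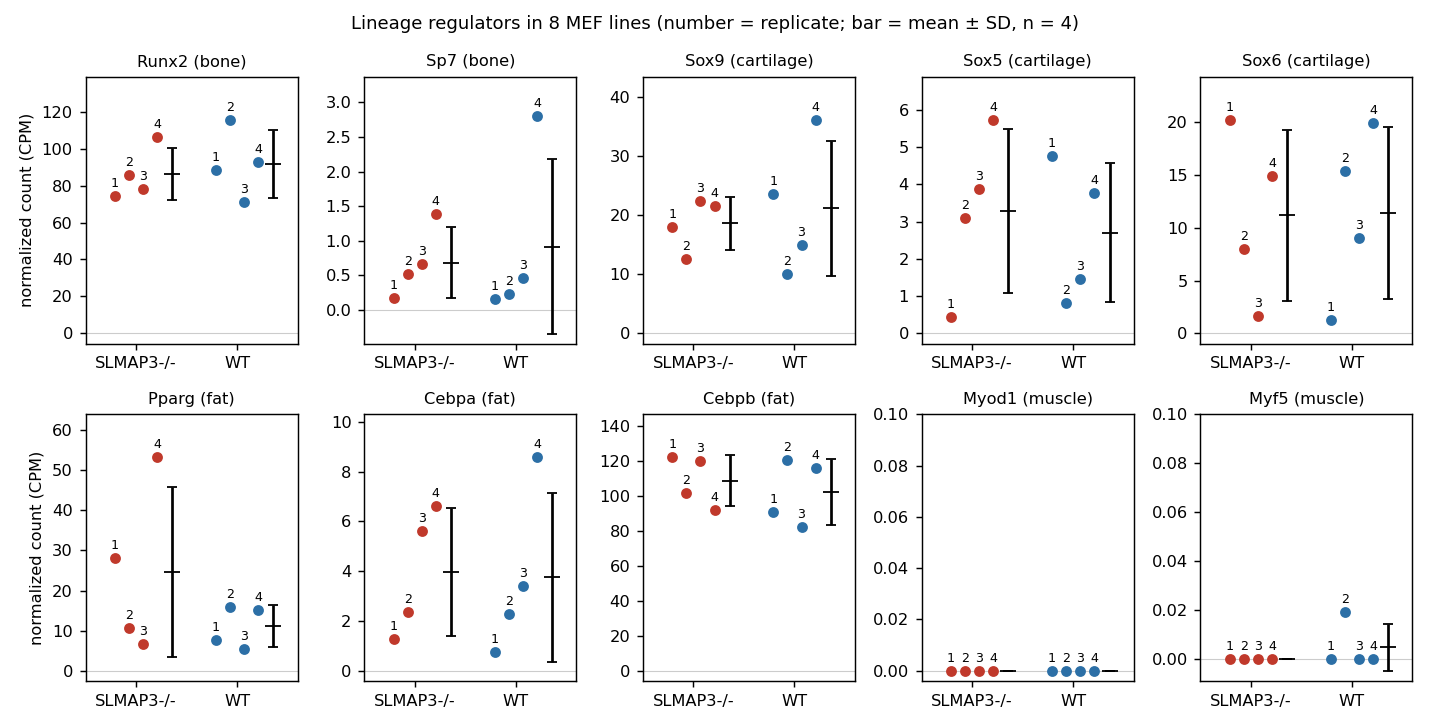
Normalized count (CPM, linear axes that differ between panels) of each of the 10 regulators in 4 SLMAP3-/- lines (red) and 4 WT lines (blue); numbers are replicates, and bars are the mean ± SD of 4 lines. The groups overlap for each gene, Runx2 and Cebpb vary little between lines, and Myod1 and Myf5 lie at or near 0.

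Runx2 (ENSMUSG00000039153.17, chromosome 17, 44495987 to 44814797 on the minus strand of GRCm38), the factor needed for osteoblasts to form, was at 74.5, 85.7, 78.2 and 106 CPM in SLMAP3-/- lines 1 to 4 and at 88.4, 116, 70.9 and 92.7 CPM in WT lines 1 to 4. The highest and lowest lines were both WT, the groups overlapped, and the lines differed little. Means were 86.1 ± 14.1 and 91.9 ± 18.4 CPM (SD, n = 4 each), a log2 difference of -0.09 (SE 0.17) for SLMAP3-/- against WT. Exons of Runx2os1 on the opposite strand overlap those of Runx2, and as the strand setting of the counting is not given, a share of antisense reads was not tested here or for the other overlaps named below.

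Sp7 (ENSMUSG00000060284.7, chromosome 15, 102356606 to 102367182, minus strand), which acts after Runx2 in osteoblasts, was at 0.173, 0.520, 0.659 and 1.38 CPM in SLMAP3-/- lines 1 to 4 and at 0.161, 0.232, 0.454 and 2.81 CPM in WT lines 1 to 4. Only SLMAP3-/- line 4 and WT line 4 passed 1 CPM, and WT line 4 stood far above the other WT lines. These levels rest on 10 to 165 counts per line, so counting error adds to the spread in the low lines. The means of 0.683 ± 0.508 and 0.913 ± 1.27 CPM gave a log2 difference of -0.42 (SE 0.96), and without WT line 4 the difference was 1.27, with the SLMAP3-/- lines then the higher group. Over the same lines Runx2 varied 1.63-fold and Sp7 17.4-fold.

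Of the 15 other genes of the bone list, 8 were below 1 CPM in every line, and each line had 3 to 6 of them at 1 CPM or more. Bglap (osteocalcin), made by mature osteoblasts, was at most 0.0803 CPM. Alpl, the alkaline phosphatase of mineralizing cells, was at 0.571, 0.50, 2.62 and 2.53 CPM in SLMAP3-/- lines 1 to 4 and at 0.0967, 4.41, 2.42 and 6.12 CPM in WT lines 1 to 4, lowest in WT line 1 and highest in WT line 4. Spp1 (osteopontin), a matrix protein that many cell types secrete, was at 103, 1015, 1564 and 115 CPM in SLMAP3-/- lines and at 787, 450, 251 and 556 CPM in WT lines, so the SLMAP3-/- lines held both extremes.

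Omd (osteomodulin), a proteoglycan of bone matrix, and Msx2, a homeobox factor of skull and limb mesenchyme, had the next highest means of the bone list. Msx2 was at 10.0, 4.40, 8.02 and 19.1 CPM in SLMAP3-/- lines 1 to 4 and at 6.26, 14.8, 13.2 and 60.3 CPM in WT lines 1 to 4. WT line 4 stood far above every other line, and the groups overlapped, with a log2 difference of -1.19 (SE 0.71). Omd was at 11.3, 5.18, 5.88 and 8.67 CPM in SLMAP3-/- lines and at 3.10, 12.1, 26.2 and 66.2 CPM in WT lines. WT lines 3 and 4 were above all others and WT line 1 was the lowest, and the log2 difference of -1.79 was -0.83 without WT line 4.

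Sox9 (ENSMUSG00000000567.5, chromosome 11, 112782224 to 112787760, plus strand), the master factor of chondrocytes, was at 18.1, 12.5, 22.4 and 21.6 CPM in SLMAP3-/- lines 1 to 4 and at 23.6, 10.1, 15.0 and 36.2 CPM in WT lines 1 to 4. Both the highest and the lowest line were WT, and the range was 3.58-fold. Means were 18.7 ± 4.51 and 21.2 ± 11.4 CPM, with a log2 difference of -0.19 (SE 0.38). Sox9 was thus above 10 CPM in every line.

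Sox5 (ENSMUSG00000041540.16, chromosome 6, 143828425 to 144781977, minus strand), a partner of Sox9 without a transactivation domain of its own, was at 0.433, 3.10, 3.89 and 5.73 CPM in SLMAP3-/- lines 1 to 4 and at 4.76, 0.813, 1.46 and 3.77 CPM in WT lines 1 to 4. SLMAP3-/- line 1 was lowest, with 25 counts, and SLMAP3-/- line 4 highest, a 13.2-fold range. The means of 3.29 ± 2.20 and 2.70 ± 1.87 CPM differed by 0.28 on the log2 scale (SE 0.76). Exons of Sox5os1 lie opposite those of Sox5.

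Sox6 (ENSMUSG00000051910.13, chromosome 7, 115470872 to 116038796, minus strand), the paralog of Sox5 with which it acts on cartilage genes, was at 20.2, 7.98, 1.61 and 14.9 CPM in SLMAP3-/- lines 1 to 4 and at 1.27, 15.4, 9.01 and 20.0 CPM in WT lines 1 to 4. SLMAP3-/- line 3 and WT line 1 stood well below the other 6 lines, and both groups thus held a high and a low line. The means were 11.2 ± 8.11 and 11.4 ± 8.11 CPM, a log2 difference of -0.030 (SE 0.85). The range of Sox6 on the log2 CPM scale exceeded that of 96.0% of tested genes, and that of Sox5 exceeded 94.8%.

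Sox5 and Sox6 did not follow each other. SLMAP3-/- line 1, with the least Sox5, had the most Sox6, whereas SLMAP3-/- line 3 and WT line 1, with 3.89 and 4.76 CPM of Sox5, had the least Sox6. Across the 8 lines Pearson's r of log2 CPM was -0.48 (Spearman's rho -0.57), the lowest of the 28 pairs of tested regulators. It was -0.17 without the 2 lines farthest from the median of Sox5. These coefficients are descriptions over 8 lines, each pair is read from the same libraries, and no p is given.

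In the cartilage list, 6 of 16 genes were below 1 CPM in every line, and each line had 7 to 10 genes at 1 CPM or more. Col2a1, the main collagen of cartilage and a direct target of Sox9, was at 0.537, 5.30, 16.6 and 27.1 CPM in SLMAP3-/- lines 1 to 4 and at 17.5, 8.30, 11.2 and 25.5 CPM in WT lines 1 to 4. SLMAP3-/- line 1, the lowest in Sox5, was also the lowest in Col2a1, and r between Sox5 and Col2a1 was 0.82 over 8 lines, the highest of the 33 pairs of a Sox gene with a tested cartilage gene. For Col2a1, r was 0.40 with Sox9 and -0.33 with Sox6. The r with Sox5 is high by selection and was not computed without SLMAP3-/- line 1. Acan (aggrecan), the cartilage proteoglycan, was at 0.571, 4.88, 3.12 and 5.39 CPM in SLMAP3-/- lines and 3.82, 13.7, 2.52 and 4.54 CPM in WT lines, again lowest in SLMAP3-/- line 1.

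Hapln1, the link protein that binds aggrecan to hyaluronan, had the widest range of the list, from 1 count in WT line 1 (0.0161 CPM) to 22.0 CPM in WT line 2. It ran against Sox5 (r -0.76). Col11a1 and Col10a1, the collagen of hypertrophic chondrocytes, had the highest mean CPM of the list. Col10a1 was at 86.3, 30.1, 43.7 and 19.1 CPM in SLMAP3-/- lines 1 to 4 and at 37.7, 149, 56.2 and 361 CPM in WT lines 1 to 4. WT line 4 was the highest for it and SLMAP3-/- line 4 the lowest, and the log2 difference of -1.75 was -0.85 without WT line 4. Col11a1 was at 73.2, 68.5, 65.4 and 27.4 CPM and at 61.7, 96.2, 161 and 243 CPM in the same order of lines, with the groups overlapping through WT line 1. Its log2 difference of -1.26 was -0.86 without WT line 4.

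**Figure D2:**
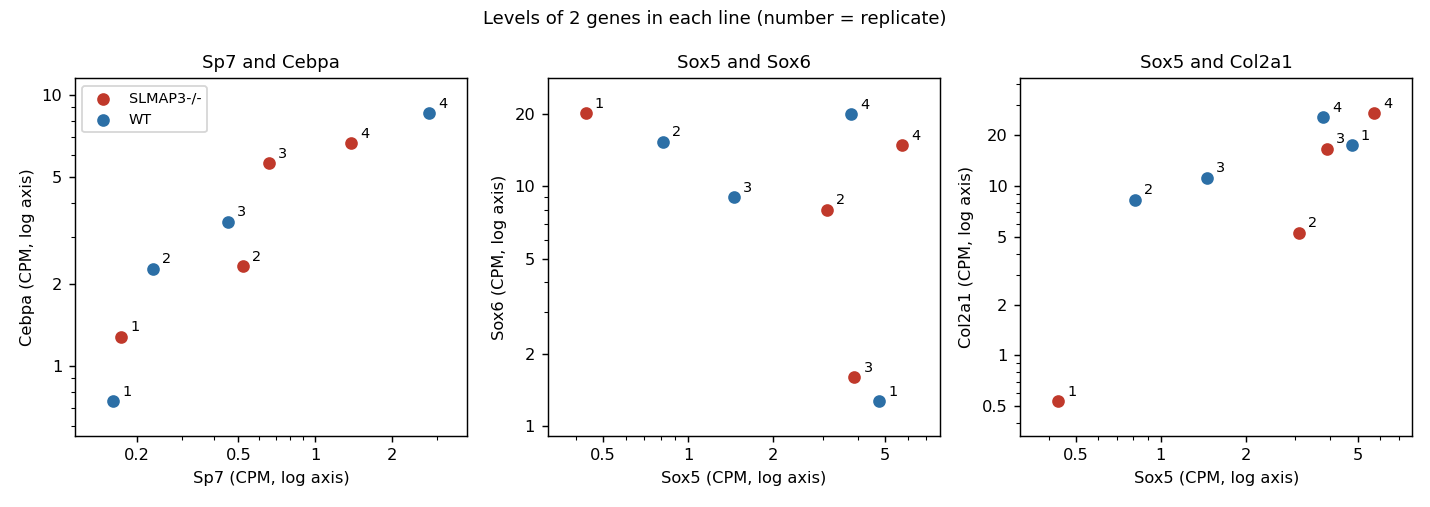
CPM of 2 genes in each of 8 lines on log axes, with SLMAP3-/- lines in red, WT lines in blue and replicate numbers beside the points. Sp7 and Cebpa increase together (r 0.92), Sox5 and Sox6 do not (r -0.48), and Col2a1 is lowest in SLMAP3-/- line 1, where Sox5 is lowest too (r 0.82).

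Pparg (ENSMUSG00000000440.12, chromosome 6, 115360951 to 115490399, plus strand), the nuclear receptor that drives adipogenesis, was at 28.2, 10.7, 6.62 and 53.3 CPM in SLMAP3-/- lines 1 to 4 and at 7.76, 15.9, 5.43 and 15.0 CPM in WT lines 1 to 4. SLMAP3-/- lines 4 and 1 were above every WT line, but SLMAP3-/- line 3 was below 3 of the 4 WT lines. Means were 24.7 ± 21.2 and 11 ± 5.23 CPM (SD, n = 4 each). The log2 difference of 1.16 (SE 0.65) was the furthest from 0 among the tested regulators. It did not pass the test, with an adjusted p of 1.00 by edgeR's quasi-likelihood test, adjusted by Benjamini-Hochberg (unadjusted p = 0.107) and a two-sided exact permutation p of 0.343. It was 0.46 without SLMAP3-/- line 4 and 1.48 without SLMAP3-/- line 3.

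Cebpa (ENSMUSG00000034957.10, chromosome 7, 35119293 to 35121928, plus strand), which sustains Pparg in fat cells, was at 1.28, 2.34, 5.61 and 6.63 CPM in SLMAP3-/- lines 1 to 4 and at 0.742, 2.28, 3.41 and 8.59 CPM in WT lines 1 to 4. Within an 11.6-fold range the lowest and the highest line were both WT. Means of 3.97 ± 2.56 and 3.75 ± 3.40 CPM gave a log2 difference of 0.079 (SE 0.74), which was 0.89 without WT line 4 and -0.29 without SLMAP3-/- line 4. SLMAP3-/- line 1 had the second highest Pparg and the second lowest Cebpa, and r between both genes was 0.18. Exons of Gm45091 lie opposite those of Cebpa.

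Cebpa tracked the bone factor Sp7 instead. The order of the 8 lines was nearly the same for both genes, with WT line 1 and SLMAP3-/- line 1 lowest and SLMAP3-/- line 4 and WT line 4 highest. Pearson's r of log2 CPM was 0.92 and Spearman's rho 0.98, the highest of the 28 pairs, and r was 0.93 within the 4 SLMAP3-/- lines and 0.92 within the 4 WT lines. Without the 2 lines farthest from the median of Sp7 it was 0.89. The next highest pair, Sox6 and Pparg, had an r of 0.64. Sp7 rests on few counts in most lines, and all pairs share their libraries.

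Cebpb (ENSMUSG00000056501.3, chromosome 2, 167688915 to 167690418, plus strand), an early factor of adipogenesis that also responds to stress and cytokines in many cells, was at 122, 102, 120 and 91.8 CPM in SLMAP3-/- lines 1 to 4 and at 90.8, 121, 82.0 and 116 CPM in WT lines 1 to 4. It was the most even of the tested regulators, with a 1.49-fold range. Means were 109 ± 14.7 and 102 ± 18.9 CPM, and the log2 difference was 0.089 (SE 0.15). A smaller range than that of Cebpb was seen in 34.8% of tested genes, and for Runx2 this share was 45.4%. Exons of Tmem189 lie opposite those of Cebpb.

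Of the 16 genes of the fat list 8 were below 1 CPM in every line, and the other 8 reached it in at least 1 line. Adipoq (adiponectin), a hormone of mature fat cells, had 1 count in WT line 3 and none elsewhere, and Lep and Cfd, named after their values were seen, had none. Fabp4, a fatty acid carrier and target of Pparg, was at 7.62, 10.3, 14.6 and 6.69 CPM in SLMAP3-/- lines 1 to 4 and at 11.4, 29.9, 7.83 and 34.7 CPM in WT lines 1 to 4. It was lowest in SLMAP3-/- line 4, the line with the most Pparg, but r between Pparg and Fabp4 was only -0.17 over the 8 lines. Dgat2, which makes triglycerides, was at 5.52 to 10.1 CPM and ran against Pparg over the 8 lines (r -0.90).

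Plin4, a lipid droplet coat protein, and Lpl, the lipoprotein lipase, instead followed Cebpa (r 0.86 and 0.79). Plin4 was at 31.2, 28.4, 42.9 and 33.8 CPM in SLMAP3-/- lines and 14, 28.1, 42.9 and 57.0 CPM in WT lines, lowest in WT line 1 and highest in WT line 4, as Cebpa was. Lpl was at 4.09, 1.18, 2.52 and 9.97 CPM in SLMAP3-/- lines and 0.355, 0.929, 4.88 and 22.5 CPM in WT lines, with both number 4 lines on top. Over all 75 pairs of a tested regulator with a tested gene of its own programme, Cebpa with Plin4 had the highest r and Pparg with Dgat2 the lowest. These coefficients, too, are descriptions over 8 shared libraries.

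Myod1 (ENSMUSG00000009471.4, chromosome 7, 46376474 to 46379099, plus strand), which can convert fibroblasts into muscle when it is forced on, had 0 counts in all 8 lines. Myf5 (ENSMUSG00000000435.1, chromosome 10, 107482908 to 107486134, minus strand), the first myogenic factor of the embryo, had 1 count in WT line 2 (0.0193 CPM) and 0 in each of the other 7 lines. A count of 0 allows a level of up to 3 counts, which is 0.0482 to 0.0600 CPM in these lines, for counting error only. Neither gene passed the filter on low counts, so neither was tested.

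Myog, the factor of terminal muscle differentiation, was at most 0.0482 CPM and Myf6, the fourth myogenic factor, at most 0.0850 CPM. Of the 16 genes of the muscle list 13 were below 1 CPM in every line. Those above were Mef2c, Acta1 and Pax3. Mef2c, which other mesenchymal cells also use, was at 39.3, 18.5, 18.3 and 13.3 CPM in SLMAP3-/- lines 1 to 4 and at 3.69, 14.8, 22.5 and 51.0 CPM in WT lines 1 to 4. Acta1, the skeletal muscle actin, was at 11.5, 18.5, 8.13 and 24.0 CPM in SLMAP3-/- lines and 3.45, 15.8, 9.10 and 11.5 CPM in WT lines. Both were lowest in WT line 1. Pax3, a factor of muscle precursors and of the neural crest, was at 4.78 CPM in SLMAP3-/- line 2 and between 0.307 and 1.84 CPM in the other 7 lines.

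**Figure D3:**
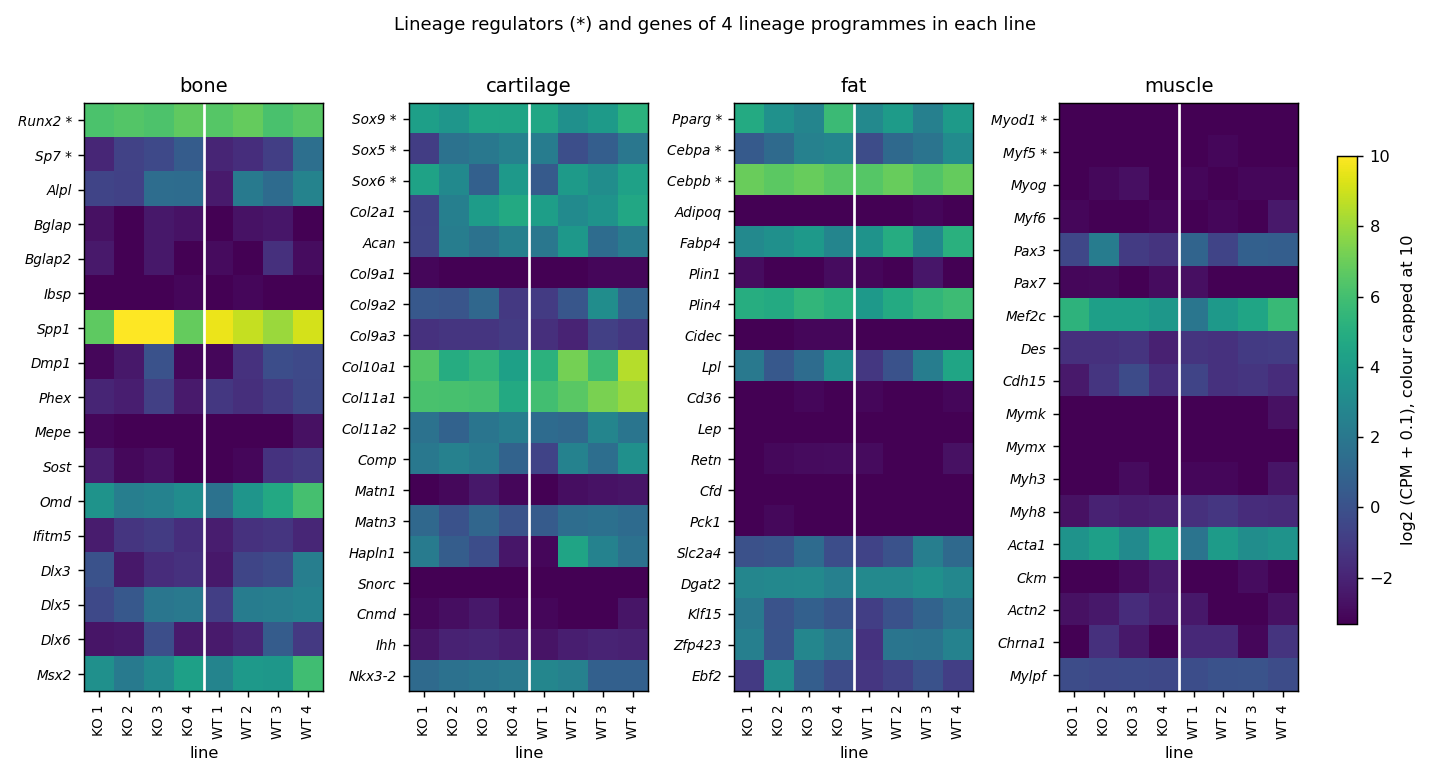
Level of each regulator (marked *) and of 15 (bone) or 16 further genes per lineage in 8 lines, as log2 of CPM + 0.1 with the colour capped at 10; KO stands for SLMAP3-/-, and the white line separates the groups. The regulators Runx2 and Cebpb are bright in every line, and 8 of 15 bone, 6 of 16 cartilage, 8 of 16 fat and 13 of 16 muscle genes are below 1 CPM in every line.

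The lines differed from each other in how much of these programmes they held. WT line 1 had 16 of the 63 programme genes at 1 CPM or more, the fewest, and WT lines 3 and 4 had 26 each, with SLMAP3-/- lines at 19 to 24 between them. Among the 36 programme genes tested, WT line 1 was the lowest line for 14 and WT line 4 the highest for 15. Among the 8 tested regulators, WT line 1 was lowest for Sp7, Sox6 and Cebpa, and WT line 4 was highest for Sp7, Sox9 and Cebpa. The lowest and the highest line were both WT for Sp7 and Cebpa (lines 1 and 4), for Sox9 (lines 2 and 4) and for Runx2 (lines 3 and 2).

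No regulator was called between SLMAP3-/- and WT lines. Of the 8 tested, 4 had a log2 difference above 0 and 4 below, their median was 0.025 against -0.0014 for all tested genes, and each had an adjusted p of 1.00 in edgeR's quasi-likelihood test, adjusted by Benjamini-Hochberg. None had an unadjusted p under 0.05 in edgeR, DESeq2 or limma-voom, where 1.81% of all tested genes had one in edgeR. With SLMAP3-/- line 3 left out Pparg had one in edgeR, with an adjusted p of 1.00 by Benjamini-Hochberg. None had groups that did not overlap, which 1.25% of all tested genes had. Two-sided exact permutation p values for the 8 ran from 0.343 for Pparg to 0.971 for Sox6, where 4 against 4 lines allow 0.0286 at the smallest. Standard errors were 0.15 for Cebpb, 0.17 for Runx2, 0.38 for Sox9 and 0.65 to 0.96 for Pparg, Sox5, Sox6, Cebpa and Sp7. For Pparg, Sox5, Sox6, Cebpa and Sp7 a 2-fold difference was about as large as its own error. It was not detectable for these genes given the spread between lines. Whether a 2-fold difference in Cebpb, Runx2 or Sox9 would have been called was not tested.

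**Figure D4:**
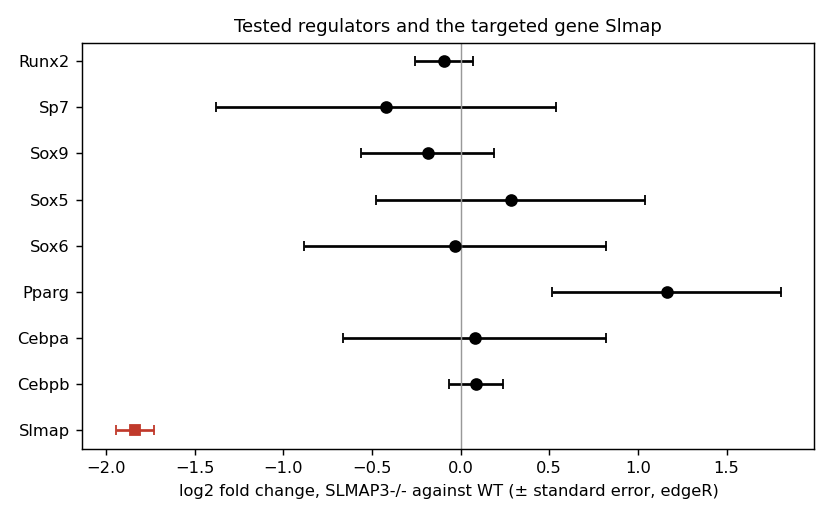
Log2 fold change of SLMAP3-/- against WT lines for the 8 tested regulators (black) and for Slmap (red). Bars are ± 1 standard error, derived from edgeR's F statistic. Slmap stands at -1.84, Pparg at 1.16, and the other regulators lie between -0.42 and 0.28.

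In the 4 programmes, 0 of 36 tested genes were called by edgeR, DESeq2 or limma-voom, and together with 21 partners 6 genes had an unadjusted p under 0.05 in edgeR, 9 in DESeq2 and 4 in limma-voom. Log2 differences were below 0 for 28 of the 36, with a median of -0.56, against 50.5% of all tested genes below 0. The bone list had 7 of 9 below 0 with a median of -0.96, cartilage 10 of 11 with -0.60, fat 5 of 8 with -0.15, and muscle 6 of 8 with -0.17. The 28 and the muscle 6 include Myh8, whose sign was partly fixed by the filter on low counts, as described below. Without WT line 4, 22 of 35 were below 0 with a median of -0.31. The bone median was then -0.42 with 7 of 9 still below 0, and the cartilage median was -0.58 with 8 of 11 below 0. The muscle median was -0.18 with 4 of 7 below 0, while the fat median turned to 0.57 with 3 of 8 below 0. Without WT line 3 the fat median was 0.060, and cartilage had 8 of 11 below 0. Cell type markers were compared between the same groups. No tested epithelial, leukocyte or neural marker had an unadjusted p under 0.05 in edgeR. The 3 tested endothelial markers had log2 differences above 0 (median 0.66), with Tek at 1.41 (unadjusted p = 0.0320 in edgeR), and the fibroblast collagen Col1a1 was at -0.30 (unadjusted p = 0.0458 in edgeR), but none of these markers was called. Their part in the differences of the programme genes was not tested.

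By unadjusted p under 0.05, 5 of the 36 passed in edgeR, against 1.81% of all tested genes. Omd, Col10a1 and Col11a1 were among them, and Ebf2 and Myh8 were the others, named after their values were seen. Ebf2, a factor of brown fat precursors, was the one with a positive log2 difference (2.39), and it was 0.66 without SLMAP3-/- line 2, whose 9.05 CPM compares with at most 1.48 CPM elsewhere. Myh8, a fetal myosin heavy chain, was at 0.0519 to 0.140 CPM in SLMAP3-/- lines and 0.204 to 0.329 CPM in WT lines, from 3 to 17 counts per line. Lines of both groups did not overlap for 2 of the 36, against 1.25% of all tested genes. They were Myh8, where the filter partly fixed this outcome, and Mylpf. Mylpf, a myosin light chain, was at 0.633 to 0.744 CPM in SLMAP3-/- and 0.765 to 0.946 CPM in WT lines. Its log2 difference was -0.29, with an unadjusted p of 0.233 in edgeR.

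Among 22 relatives and partners of the regulators 21 were tested, 10 with a log2 difference below 0 and 11 above, with a median of 0.033 and 0 called. Runx1 and Runx3, relatives of Runx2 known from blood cells and sensory neurons, were at 10.9 to 40.8 CPM and 29.9 to 61.3 CPM, and their shared partner Cbfb was at 140 to 175 CPM. Sox8, a relative of Sox9 in the same subgroup, was at 0.260 to 1.77 CPM, Sox10 at no more than 0.0568 CPM, and Sox13, which groups with Sox5 and Sox6, at 0.252 to 1.34 CPM. Ppard, the widely expressed relative of Pparg, was at 67.5 to 88.8 CPM, whereas Ppara was at 0.468 to 1.06 CPM. Cebpd, which acts beside Cebpb early in adipogenesis, was at 29.9, 30.7, 23.3 and 32.9 CPM in SLMAP3-/- lines and 12.3, 27.7, 17.6 and 22.7 CPM in WT lines, with an exact permutation p of 0.0571. Its unadjusted p was 0.0515 in edgeR and 0.0410 in DESeq2. Cebpg was at 48.3 to 67.2 CPM and Ddit3, the stress factor of the family, at 15.2 to 24.5 CPM. The 1 partner with an unadjusted p under 0.05 in edgeR, named for that after its value was seen, was Twist2, which holds back osteoblast and muscle factors, with a log2 difference of 0.34 (unadjusted p = 0.0356 and adjusted p = 1.00 in edgeR's quasi-likelihood test, adjusted by Benjamini-Hochberg).

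Some tested genes followed a regulator closely over the 8 lines, by Pearson's r of log2 CPM over all 15461 tested genes, and the top 3 of each are given without a p, since the highest r of so many genes is high by selection. Nearest to Runx2 were Rcan2, Smad7 and Gm43445 (r 0.94 each), and nearest to Sp7 were Inpp4b (0.95), Nr4a3 (0.95) and Wnk2 (0.94). Sox9 was followed by Cadm1 (0.92), R3hdm2 (0.91) and Gm37174 (0.90), Sox5 by Kif26b (0.96), Gm8355 (0.96) and Tcf7 (0.95), and Sox6 by Ndel1 (0.97), Mrtfa (0.97) and Tle4 (0.96). Pparg was followed by Atg3 (0.97), Spryd3 (0.95) and Iqsec1 (0.94), Cebpa by Ifi203 (0.98), Shisa5 (0.97) and Phactr1 (0.97), and Cebpb by Gm16425 (0.97), Ramp1 (0.96) and Crtc3 (0.93). No gene of the 4 programmes was among these 24. Gm16425 (0.0189 to 0.467 CPM), Gm37174 (0.0774 to 0.544 CPM) and Gm43445 (0.294 to 0.658 CPM) were below 1 CPM in every line, so their r rests on low counts.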

How the data were processed

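RNA-seq of 8 immortalized MEF lines, 4 SLMAP3-/- and 4 WT, was used, with groups from the sample labels. The authors assigned reads of a stranded mRNA kit to the GRCm38 GENCODE M25 transcriptome with Salmon and deposited an estimated count per gene and line, scaled for transcript length. Salmon's version and library type are not given in the sources used here. A table of the authors' DESeq2 comparison (log2 fold changes and p-values) was also deposited and was not used.

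Estimated counts were rounded and tested with edgeR 4.0.16 in R 4.3.3 (filterByExpr with a minimum count of 10, TMM, quasi-likelihood test, Benjamini-Hochberg over 15461 genes, adjusted p under 0.05). CPM are TMM-normalized, and log2 values used a prior count of 2. Standard errors (SE) of log2 differences are the absolute log2 difference divided by the square root of edgeR's F statistic. Single genes were also tested by two-sided exact permutation over the lines. Lines come from separate embryos, 1 library each. Alternatives were DESeq2 1.42.0, limma-voom 3.58.1, DESeq2's size factors, both other filters on low counts, the replicate number as a block, leaving out each line, a prior count of 0.5 and a detection threshold of 0.5 CPM. Medians of the gene lists without each line and the longest transcript as length were added after seeing the data. edgeR, DESeq2 and limma-voom were run on simulated counts of 15461 genes, of which 200 were changed. At a 2-fold change edgeR recovered 63 of the 200 with 6 false calls. DESeq2 recovered 117 with 73 false calls, and limma-voom 56 with 4. At a 4-fold change edgeR recovered 132 with 6 false calls, and at an 8-fold change 179 with 4. The changed genes were drawn at random from all tested genes. These counts need not hold for the regulators, most of which had wide ranges between lines.

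The regulators and all gene lists were chosen with earlier results of these data known. Genes named are all regulators, Slmap, and from each lineage list the 3 with the highest mean CPM, the 1 with the widest range among tested genes, the first 2 as listed and any called. Family members of a regulator, any called partner and the 3 genes most correlated with each regulator were also named. Cell type markers, Cbfb, Lep, Cfd, Ebf2, Myh8, Mylpf and Twist2 fall outside this rule and were named after their values were seen. Positions and lengths are from GENCODE M21 (GRCm38), and promoter windows are from RefSeq GRCm38.p6. One gene of the bone list is not reported here and is in no count of the lists. Ddit3 was on 2 rows, of which the one with more counts was used. Totals of 49879059 to 63322486 counts per line make counting error small for Runx2, Sox9 and Cebpb. It adds to the spread for Sp7 and, in their lowest lines, for Sox5 (25 counts in SLMAP3-/- line 1) and Cebpa (46 counts in WT line 1).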

Additional observations from a re-analysis of the deposited data

Results flagged for a closer look

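Of 66 groups of 4 lines examined for a line far from the other 3, 6 were singled out because the gap to the nearest line, as a share of the whole range of the group, passed Dixon's critical value. The shares were taken on linear CPM. Normally distributed values would pass in about 1 in 20, or 3.3 of 66. CPM skewed towards high values can pass more often, so the 6 were not compared with 3.3. For Sp7, WT line 4 stood at 2.81 CPM against 0.161 to 0.454 CPM in the other WT lines (share 0.889). Msx2 in WT line 4 was at 60.3 CPM against 6.26 to 14.8 CPM (share 0.842). Col11a1 in SLMAP3-/- line 4 was at 27.4 CPM against 65.4 to 73.2 CPM (share 0.831). For Pax3, SLMAP3-/- line 2 was at 4.78 CPM against 0.307 to 0.606 CPM (share 0.933). Sox13 had such a line in each group, SLMAP3-/- line 4 at 0.920 CPM against 0.340 to 0.353 CPM (share 0.977) and WT line 1 at 1.34 CPM against 0.252 to 0.360 CPM (share 0.901).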

How the results depend on the processing

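No regulator and no gene of the 4 programmes was called under any alternative that was run. The number of genes called was 1 in the main test and 11 with DESeq2, and 0 with the replicate block, under which Slmap was no longer called (adjusted p = 0.171 in edgeR), although its log2 difference was -1.84 in both fits. Same-numbered lines of both groups deviated together weakly or not at all (correlations of -0.157 to 0.187, highest with the own number for 1 of 4), so the numbers were not read as pairs. The block also turned the log2 difference of Sp7 from -0.42 to 0.17, and limma-voom turned Sp7 to 0.17 and Sox6 from -0.030 to 0.036. Leaving out a line in turn gave 1 gene called each time. In the same way the log2 difference ran from -0.21 to 0.037 for Runx2, -1.02 to 1.27 for Sp7, -0.42 to 0.20 for Sox9, -0.13 to 0.71 for Sox5, -0.48 to 0.39 for Sox6, -0.29 to 0.89 for Cebpa and -0.0046 to 0.18 for Cebpb, while Pparg kept its sign (0.46 to 1.48). Of 112 values of regulators under alternatives, 95 kept their sign and 17 did not, and the lowest adjusted p was 0.786 (Pparg with no filter on low counts). With 0.5 CPM as the threshold, Sp7 was present in 4 lines in place of 2, Sox5 in 7 in place of 6 and Cebpa in 8 in place of 7. The causes were not tested. With 4 lines a group, the spread between lines limits the comparison for most regulators, and low counts add to it for Sp7 and for the lowest lines of Sox5 and Cebpa.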
